A study of Mus musculus with 13 samples.

Results

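The enzymes of the pentose phosphate pathway and the cytosolic isocitrate dehydrogenase *Idh1* were followed in bulk RNA-Seq libraries of mouse parametrial white adipose tissue (pmWAT). The genes were taken by symbol, *G6pdx*, *Pgls*, *Pgd*, *Rpia*, *Rpe*, *Tkt*, *Taldo1* and *Idh1*, and all 8 were found among the 33618 Ensembl genes counted. Whole pmWAT came from female mice of 2 genotypes. The 7 controls were *Lmna fl/fl* and lacked Cre, and the 6 *Lmna* iADKO mice carried the same floxed alleles with a tamoxifen-inducible Cre driven by the *Adipoq* promoter, which is active in adipocytes. All mice, controls included, received tamoxifen at 50 mg/kg on 5 consecutive days at 12 to 14 weeks of age, and the tissue was taken 2 weeks later. The Cre acts in adipocytes, so the other cells of the tissue keep *Lmna*. Each mouse gave 1 library, and the p-values below are over mice.

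The pentose phosphate pathway branches from glycolysis at glucose 6-phosphate. Its oxidative branch reduces NADP to NADPH and releases a pentose phosphate, and its non-oxidative branch converts pentose phosphates back to sugars of glycolysis or runs the other way to make ribose for nucleotides. In white fat, cytosolic NADPH is the reductant for fatty acid synthesis and also keeps glutathione and thioredoxin reduced, and it comes from this pathway, from malic enzyme and from the cytosolic isocitrate dehydrogenase.

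The 7 fl/fl libraries held 19147428 to 19776491 reads on genes, with a median of 19533703, and the 6 iADKO libraries 18854223 to 19569221, with a median of 19494365. Values below are CPM, the count of a gene scaled to a common library size, normalized by edgeR's TMM method. The floxed gene *Lmna* (ENSMUSG00000028063) lay between 74.7 and 98.5 CPM in the libraries labelled fl/fl (median 83.5) and between 80.1 and 109 CPM in those labelled iADKO (median 96.8). It was not lower in the latter, at a log2 fold change of 0.19 ± 0.079 (standard error) and an adjusted p of 0.0785 by edgeR's quasi-likelihood test. The counts cover the whole gene, so the floxed exons cannot be read apart, and each direction given here rests on the labels. Without fl/fl replicate 1 the *Lmna* log2 fold change was 0.23 (adjusted p = 0.0411), and without iADKO replicate 6 it was 0.24 (adjusted p = 0.0208).

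The tissue label was checked against 10 adipocyte markers. Their summed level was between 19220 and 30230 CPM in fl/fl (median 26700) and between 12180 and 20890 CPM in iADKO (median 14020), with *Cfd* the most abundant. A library in each genotype stood apart. Fl/fl replicate 5 had the lowest adipocyte sum of its genotype, at 19220 CPM, and the highest macrophage marker sum, at 5778 CPM against 2115 to 3972 CPM in the other 6. Conversely, iADKO replicate 6 had the highest adipocyte sum of its genotype, at 20890 CPM, and the lowest macrophage sum, at 3471 CPM against 4973 to 5990 CPM in the other 5. The count of enzymes that passed is therefore also given without each of these libraries, and values without fl/fl replicate 5 are added for enzymes that passed and for some of the gene lists.

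Transcripts of 6 of the 8 enzymes were lower in iADKO libraries by edgeR's test, with p adjusted over the 16753 genes tested and a threshold of 0.05, and 0 were higher. Across all genes tested, 16.3% were lower and 14.1% higher by the same test. No enzyme was higher at an unadjusted p under 0.05 either, and DESeq2 and limma also called 0 higher. The 6 were *Tkt*, *G6pdx*, *Pgd*, *Taldo1*, *Idh1* and *Rpe*. *Pgls* and *Rpia* did not pass. The median log2 fold change of the 8 was -0.63, against 0.03 over all genes tested. All 6 also passed without fl/fl replicate 5 and without iADKO replicate 6. In bulk tissue, fewer adipocytes and less RNA per adipocyte cannot be told apart.

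The oxidative branch opens with *G6pdx* (ENSMUSG00000031400, minus strand of GRCm39 chromosome X, 73449857 to 73472819), whose product, glucose-6-phosphate dehydrogenase, makes the first NADPH of the pathway and sets its rate. *G6pdx* was between 197.6 and 486 CPM in fl/fl (median 408) and between 166 and 249 CPM in iADKO (median 188). The lowest fl/fl value was that of replicate 5, which lay inside the iADKO range, and the other 6 fl/fl libraries were above every iADKO library. Its fl/fl mean was 384 ± 102 CPM (SD, n = 7), and the iADKO mean was 195 ± 28.5 CPM (SD, n = 6). The change was -0.98 ± 0.18 on the log2 scale (± standard error of edgeR's fit, adjusted p = 0.00171). Without fl/fl replicate 5 the log2 fold change was -1.09.

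*Pgls* (ENSMUSG00000031807, plus strand of chromosome 8, 72044202 to 72053768) encodes the lactonase that hydrolyzes the product of that step. It was between 42.0 and 57.4 CPM in fl/fl (median 50.4) and between 37.3 and 50.3 CPM in iADKO (median 44.6). The groups overlapped, and 4 fl/fl libraries lay above the highest iADKO library. The log2 fold change was -0.16 ± 0.080 (standard error, edgeR adjusted p = 0.146).

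*Pgd* (ENSMUSG00000028961, minus strand of chromosome 4, 149233246 to 149251228) encodes 6-phosphogluconate dehydrogenase, which makes the other NADPH of the branch and releases ribulose 5-phosphate. It was between 312 and 887 CPM in fl/fl (median 668) and between 313 and 430.3 CPM in iADKO (median 366). Fl/fl replicate 5 was the lowest of all 13 libraries, and the remaining 6 fl/fl libraries were above all iADKO libraries. The mean fell from 660.2 ± 196 CPM (SD, n = 7) to 367 ± 39.8 CPM (SD, n = 6). The change was -0.85 ± 0.19 on the log2 scale (± standard error of edgeR's fit, adjusted p = 0.00533). Without fl/fl replicate 5 it was -0.96. With the animal-number series as a block, *Pgd* did not pass (log2 fold change -0.80, adjusted p = 0.0580), and its adjusted p ran from 7.19e-05 to 0.0580 over the 21 alternatives tried.

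In the non-oxidative branch, *Rpia* and *Rpe* encode the isomerase and the epimerase that share out ribulose 5-phosphate. *Rpia* (ENSMUSG00000053604, minus strand of chromosome 6, 70742704 to 70769216) was between 24.4 and 40.7 CPM in fl/fl (median 26.9) and between 24.0 and 30.4 CPM in iADKO (median 27.6). The ranges nearly coincided apart from fl/fl replicates 1 and 2, and the log2 fold change was -0.099 ± 0.11 (standard error, edgeR adjusted p = 0.503). *Rpe* (ENSMUSG00000026005, plus strand of chromosome 1, 66739945 to 66765663) was between 50.6 and 73.7 CPM in fl/fl (median 70.4) and between 42.7 and 53.9 CPM in iADKO (median 45.9). Here the groups overlapped through fl/fl replicate 5 and iADKO replicate 6. The log2 fold change of *Rpe* was -0.53 ± 0.084 (standard error, edgeR adjusted p = 7.47e-04), and -0.58 without fl/fl replicate 5.

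*Tkt* (ENSMUSG00000021957, plus strand of chromosome 14, 30270156 to 30299612) encodes transketolase, which moves carbon units between sugar phosphates and links the pathway to glycolysis. It had the largest change of the 8 genes. *Tkt* was between 862 and 2497 CPM in fl/fl (median 2148) and between 479 and 940.4 CPM in iADKO (median 588). Replicate 5 was the lowest fl/fl library and replicate 6 the highest iADKO library, and these were the only libraries in which the groups overlapped. The fl/fl mean was 1959 ± 596 CPM (SD, n = 7) and that of iADKO 632 ± 165 CPM (SD, n = 6), or 32.3% of fl/fl in the fit. The change was -1.63 ± 0.23 on the log2 scale (± standard error of edgeR's fit, adjusted p = 4.68e-04). It was -1.76 without fl/fl replicate 5 and -1.78 without iADKO replicate 6.

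*Taldo1* (ENSMUSG00000025503, plus strand of chromosome 7, 140972053 to 140982886) encodes transaldolase, the partner of transketolase in the branch. It was between 274 and 496 CPM in fl/fl (median 466) and between 239 and 339 CPM in iADKO (median 254). Fl/fl replicate 5 lay well below the other fl/fl libraries, and iADKO replicate 6 well above the other iADKO libraries. The log2 fold change was -0.72 ± 0.13 (standard error, edgeR adjusted p = 0.00131). It was -0.80 both without the former library and without the latter.

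*Idh1* (ENSMUSG00000025950, minus strand of chromosome 1, 65196781 to 65225721) makes cytosolic NADPH from isocitrate, outside the pentose phosphate pathway. It was between 378 and 660.3 CPM in fl/fl (median 441) and between 303 and 393 CPM in iADKO (median 326). Only fl/fl replicate 5 and iADKO replicate 6 crossed the gap between the groups. Means were 484 ± 95.6 CPM for fl/fl (SD, n = 7) and 331 ± 32.0 CPM for iADKO (SD, n = 6). The change was -0.55 ± 0.12 on the log2 scale (± standard error of edgeR's fit, adjusted p = 0.00379). It was -0.60 both without fl/fl replicate 5 and without iADKO replicate 6.

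With all 13 libraries, 0 of the 8 genes had every iADKO library below every fl/fl library, a pattern held by 3.93% of the genes tested. Without fl/fl replicate 5, the same 6 genes that passed the test had it, against 10.1% of the genes tested. Together, the 8 genes held between 0.218% and 0.445% of all counts in fl/fl and between 0.182% and 0.254% in iADKO. The low end of fl/fl was replicate 5, and the other 6 fl/fl libraries were at 0.324% or more.

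**Figure D1:**
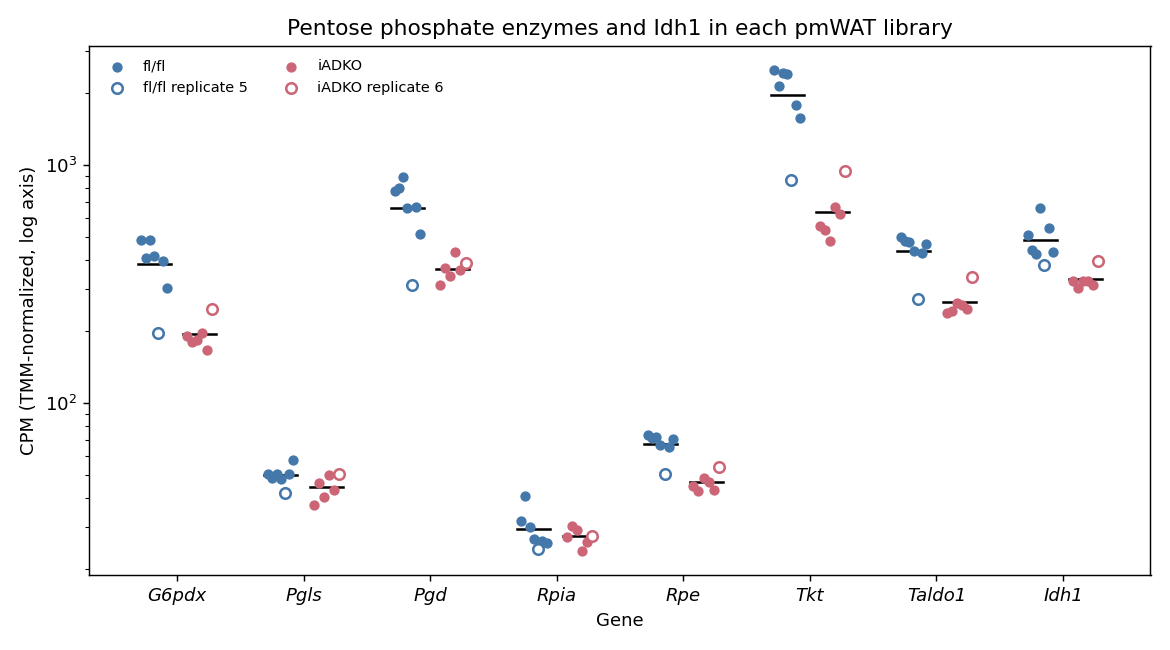
TMM-normalized CPM of each gene on a log axis, 1 point per library, with fl/fl in blue (n = 7) and iADKO in red (n = 6), black lines at the group means and open circles for fl/fl replicate 5 and iADKO replicate 6. For *Tkt*, iADKO libraries lie between 479 and 940.4 CPM, and fl/fl libraries other than replicate 5 at 1581 CPM or more.

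The library names carry animal numbers, which were grouped here into 4 series of near numbers. The labels do not give this grouping, and the number of iADKO replicate 1 lies farthest from the rest of its series. Of the 4 series, only 2 hold both genotypes. Within the series of fl/fl replicates 1 to 3 and iADKO replicates 1 and 2, the log2 fold change was -2.13 for *Tkt*, -1.32 for *G6pdx*, -1.28 for *Pgd*, -1.02 for *Taldo1* and -0.73 for *Rpe*. Within the series of fl/fl replicates 4 and 5 and iADKO replicates 4 and 6, which holds both libraries that stood apart, it was -1.03 for *Tkt*, -0.46 for *G6pdx*, -0.25 for *Pgd*, -0.25 for *Taldo1* and -0.22 for *Rpe*. In that series 0 of 16890 genes passed edgeR's test, with 657 at an unadjusted p under 0.05, and *Pgls* and *Rpia* had log2 fold changes of 0.15 and 0.011. In the former series 4785 of 17108 genes passed, 6 of the 8 enzymes were lower, and *Pgls* and *Rpia* were at -0.26 and -0.25. *Idh1* was the exception to the gap between the series, at -0.55 and -0.53. These fits were chosen after seeing the data.

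Levels of different genes were compared per kilobase of exon, merged over all annotated transcripts of a gene. This length was 10.47 kb for *Tkt*, 13.24 kb for *Rpe* and 2.44 kb for *Taldo1*. The order below depends on it, and no other length was tried. In plain CPM, mean *Tkt* was above mean *Taldo1* in both groups (1959 and 437 in fl/fl, 632 and 265 in iADKO). In fl/fl, *Tkt* was at 187 ± 56.9 CPM per kb and *Taldo1* at 179 ± 30.9 (SD, n = 7), which did not differ beyond their spread. *Pgd*, *Idh1* and *G6pdx* followed at 83.5 ± 24.7, 72.6 ± 14.4 and 59.4 ± 15.8 CPM per kb, again with overlapping spreads. *Pgls*, *Rpia* and *Rpe* were the lowest, at 9.60 ± 0.880, 5.50 ± 1.04 and 5.07 ± 0.597 CPM per kb. In iADKO *Taldo1* was at 109 ± 15.3 CPM per kb and *Tkt* at 60.4 ± 15.7 (SD, n = 6), with *Taldo1* the higher in every library, as it also was in fl/fl replicates 5, 6 and 7. *Idh1*, *Pgd* and *G6pdx* were then at 49.7 ± 4.80, 46.4 ± 5.04 and 30.1 ± 4.41 CPM per kb. The genes that did not pass the test, *Pgls* and *Rpia*, were thus among the 3 with the lowest levels, together with *Rpe*, which passed.

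Whether enzymes changed by unequal amounts was asked with the difference of log2 CPM between 2 genes of the same library, which does not depend on the scaling between libraries. Group labels were permuted exactly, in all 1716 ways, for a two-sided p in each of 6 pairs, and p was adjusted over the pairs. *Tkt* exceeded *Taldo1* by 1.65 to 2.46 in fl/fl and by 0.86 to 1.47 in iADKO. No iADKO library reached the fl/fl range, fl/fl replicate 5 included. The difference between groups was -0.89 (95% interval -1.21 to -0.55, exact permutation p = 0.00117, adjusted p = 0.00699). It was -0.64 in the animal series of fl/fl replicate 5 and -1.11 in the other series with both genotypes. Here and for the pairs below, the values within the series were added after seeing the data and carry no test.

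*Rpia* relative to *Rpe* was higher in iADKO by 0.44 (95% interval 0.20 to 0.67, exact permutation p = 0.00408, adjusted p = 0.00874). The ratio was between -1.45 and -0.81 in fl/fl and between -0.96 and -0.49 in iADKO, so the groups overlapped. For the NADPH-making steps of the oxidative branch, *G6pdx* relative to *Pgd* differed by -0.15 (95% interval -0.36 to 0.050, exact permutation p = 0.126, adjusted p = 0.126). This pair did not pass with all libraries, and without iADKO replicate 6 the difference was -0.21 (exact permutation p = 0.0354). Over its alternatives the unadjusted p was 0.0354 to 0.281. The difference of this pair was -0.22 in the animal series of fl/fl replicate 5 and -0.025 in the other series with both genotypes.

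*H6pd* encodes the enzyme of the endoplasmic reticulum that carries out the first oxidative steps there. *G6pdx* relative to *H6pd* was lower in iADKO by a difference of -0.50 (95% interval -0.86 to -0.10, exact permutation p = 0.0221, adjusted p = 0.0266). The iADKO ratios, between -1.16 and -0.70, all lay inside the fl/fl range of -1.30 to -0.14, whose low end was replicate 5. Within the animal series it was -0.15 where fl/fl replicate 5 and iADKO replicate 6 lie and -0.74 in the other. *Idh1* relative to its mitochondrial paralog *Idh2* differed by -0.42 (95% interval -0.72 to -0.14, exact permutation p = 0.00466, adjusted p = 0.00874). It was -0.50 in the series of fl/fl replicate 5 and -0.41 in the other. The groups overlapped (2.06 to 2.90 in fl/fl and 1.87 to 2.22 in iADKO). *Idh1* relative to the cytosolic malic enzyme gene *Me1* was higher in iADKO by 1.31 (95% interval 0.54 to 2.04, exact permutation p = 0.00583, adjusted p = 0.00874). This was 0.098 in the series of fl/fl replicate 5 and 2.27 in the other. The ratio in fl/fl replicate 5, at -0.30, was the highest of the fl/fl libraries and inside the iADKO range of -0.89 to 0.004.

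Among 21 other genes around the pathway, 19 were in the file and 15 were tested, with 4 lower and 2 higher in iADKO and a median log2 fold change of -0.16. The counts were 6 and 2 without fl/fl replicate 5, a fit that called 3285 of all 16638 genes lower and 3319 higher. With all libraries, the lower genes were *H6pd* (-0.44), the sedoheptulose kinase *Shpk* (-0.65), the deoxyribose-phosphate aldolase *Dera* (-0.47) and the phosphoglucomutase *Pgm1* (-0.73). *Pgm2* (0.33) and the ribose-phosphate pyrophosphokinase *Prps2* (0.25), which draws on the pathway's ribose, were higher. With the animal-number series as a block, *Dera* and *Prps2* did not pass (log2 fold changes -0.41 and 0.27, adjusted p = 0.0575 and 0.0546). The regulator *Tigar* had a log2 fold change of -0.26 (edgeR adjusted p = 0.0763). *G6pd2*, *Tktl1*, *Rgn* and *Prps1l1* were too low to be tested, with *G6pd2* and *Tktl1* at mean levels of 0.110 and 0.0924 CPM in fl/fl. *Rpel1* and *Tktl2* were not analysed here.

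Of 16 further genes that make NADPH or feed its production, 7 were lower and 1 higher in iADKO, with a median of -0.16. *Me1* was between 466 and 2816 CPM in fl/fl (median 1852) and between 326 and 731 CPM in iADKO (median 437). Fl/fl replicate 5 was again inside the iADKO range. The log2 fold change of *Me1* was -1.94 ± 0.34 (standard error, edgeR adjusted p = 0.00153). It was -0.88 in the animal series of fl/fl replicate 5 and -2.83 in the other series with both genotypes. The citrate carrier *Slc25a1* (-1.44) and the cytosolic folate enzyme *Aldh1l1* (-1.26) were also lower, as were *Aco1* (-0.56), *Nadk2* (-0.47), the cytosolic NAD kinase *Nadk* (-0.40) and *Glud1* (-0.27). The gene that was higher was the mitochondrial folate enzyme *Mthfd1l*, with a log2 fold change of 0.47 (edgeR adjusted p = 0.00513). It and *Glud1* did not pass with the series block (log2 fold changes 0.43 and -0.26, adjusted p = 0.0523 and 0.0552). The mean of *Idh2* was 89.8 ± 8.81 CPM for fl/fl (SD, n = 7) and 83.1 ± 4.43 CPM for iADKO (SD, n = 6), and its log2 fold change of -0.11 did not pass (edgeR adjusted p = 0.203).

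**Figure D2:**
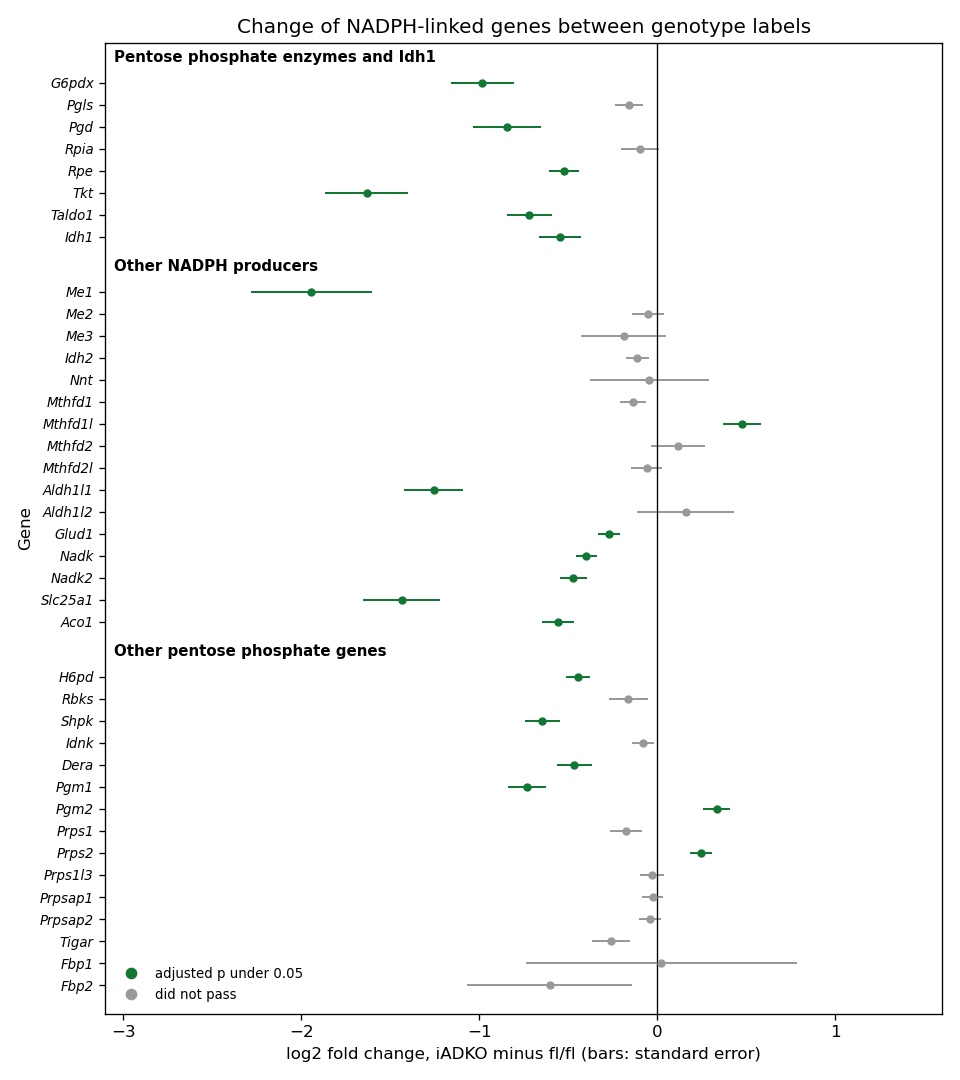
The log2 fold change, iADKO minus fl/fl, of the 8 enzymes and of the tested genes of the lists of other NADPH producers and other pentose phosphate genes, with bars for the standard error and green for an adjusted p under 0.05 by edgeR's quasi-likelihood test. *Tkt* is the lowest of the 8 at -1.63, and *Me1* at -1.94 is the lowest of those plotted.

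Genes tied to the use of NADPH did not move in a single direction, and not every gene listed here encodes an enzyme that consumes it. Of 12 genes of fatty acid and sterol synthesis with a reductive step or next to one, 7 were lower, and the median log2 fold change was -0.68. The count was 9 without fl/fl replicate 5 and 5 with the animal-number series as a block. The trans-2-enoyl-CoA reductase *Tecr* was at -0.99, the sterol dehydrogenase *Nsdhl* at -1.29 and *Fasn* at -1.99. Of 20 genes of the glutathione and thioredoxin systems and of related redox enzymes, 6 were lower, *Cat* (-0.76) and *Gpx4* (-0.70) among them. In the same list 4 were higher, with *Glrx* at 0.72 and *Hmox1* at 0.81, and the median was 0.056. Leaving out fl/fl replicate 5 gave 9 lower and 4 higher, against 3285 and 3319 of all 16638 genes in that fit. The series block gave 4 lower and 2 higher, against 1202 and 784 of all 16753 genes. *Gpx4* and *Hmox1* did not pass with the block (log2 fold changes -0.68 and 0.70, adjusted p = 0.0585 and 0.0771). Of 7 NADPH oxidase genes, most of them phagocyte subunits, 4 were higher, with *Cyba* at 0.85, and the median was 0.74. *Cybb*, the most abundant of these, did not pass (log2 fold change 0.75, edgeR adjusted p = 0.0777). The oxidase count depended on the libraries and the model. It was 6 without fl/fl replicate 5, *Cybb* among them (log2 fold change 1.11, adjusted p = 3.07e-04), and with the animal-number series as a block it was 0 (*Cyba* adjusted p = 0.0618).

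Of 11 lipogenic enzymes and regulators, 11 were lower, from -2.60 for *Elovl6* to -0.31 for *Nr1h3*. The series block left 7 of them, without *Nr1h3* (adjusted p = 0.0648). Of 10 genes of glucose entry, 6 were lower and 3 higher. The insulin-responsive transporter *Slc2a4* (-1.04) and the hexokinase *Hk2* (-0.75), which supply glucose 6-phosphate, were lower, and *Slc2a1* (0.45) and *Hk3* (1.02) were higher.

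Marker genes of cell types moved with the same labels. All 10 adipocyte markers were lower, from -1.15 for *Retn* to -0.61 for *Fabp4*, with a median of -0.84, and 7 of them passed with the animal-number series as a block. *Cfd*, *Fabp4* and *Pparg* did not, at -0.60, -0.60 and -0.54 with the block. Of 10 macrophage markers, 8 were higher, with *Cd68* at 1.06 and a median of 0.70, and their sum was between 2115 and 5778 CPM in fl/fl (median 2586) and between 3471 and 5990 CPM in iADKO (median 5009). *Lyz2*, the most abundant, did not pass (log2 fold change 0.72, edgeR adjusted p = 0.103). It did without fl/fl replicate 5 (1.065, adjusted p = 0.00220), where 9 of the 10 markers passed. With the animal-number series as a block 0 macrophage markers passed. The 8 that were higher in the main fit then had log2 fold changes of 0.36 for *Mrc1* to 1.06 for *Cd68*. In the main fit these 2 were at 0.39 and 1.06. Of 5 proliferation markers 4 were higher, of 5 endothelial markers 2 were lower, and 1 of 5 neutrophil, 2 of 4 B cell and 2 of 4 T cell markers were higher. The neutrophil count was 2 without fl/fl replicate 5, which added *Csf3r* (adjusted p = 0.00417). Of these calls the series block kept only *Cdk1* of the proliferation and *Kdr* of the endothelial markers, and it added the B cell marker *Ms4a1* (adjusted p = 0.0375, against 0.0608 in the main fit). No progenitor, mesothelial, mural or skeletal muscle marker passed in the main fit, out of 5 in each list. With the block, 4 of the 5 skeletal muscle markers were lower, among them *Acta1* and *Myh4* (adjusted p = 0.0297 and 0.0245). *Acta1* was then at -2.67, against -0.98 in the main fit. *Myh4* had an iADKO median of 0.097 CPM, too near 0 for an exact fold. The summed muscle markers were highest in fl/fl replicates 5 and 1, at 334.4 and 270.8 CPM. Leaving out fl/fl replicate 5, the progenitor marker *Pdgfra* (0.335, adjusted p = 0.00662) and the mesothelial marker *Krt19* (0.55, adjusted p = 0.0417) were higher and the mural marker *Rgs5* (-0.34, adjusted p = 0.0384) lower. The neutrophil marker *Ly6g* was at 0 in 1 library and the muscle marker *Myh4* in 3, and no other marker was at 0 in any library. The part of these cell types in the decrease of the 6 enzymes was not tested.

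The mean log2 CPM of the 10 adipocyte markers differed by -0.88 between groups. Measured against that mean in each library, a scale chosen after seeing the data, *G6pdx* differed by -0.055, *Pgd* by 0.099 and *Taldo1* by 0.18, whereas *Tkt* differed by -0.71. *Idh1* and *Rpe* differed by 0.35 and 0.36, and *Pgls* and *Rpia* by 0.72 and 0.80. *Tkt* was thus the only 1 of the 8 genes that fell by more than 0.10 beyond the adipocyte marker mean on the log2 scale. Its groups overlapped on this scale, at -0.46 to 0.45 in fl/fl and -1.05 to -0.31 in iADKO. These values are a description.

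After each group's mean was subtracted, the mean of the 8 genes was lowest in fl/fl replicate 5, at -0.61 on the log2 scale, and highest in iADKO replicate 6, at 0.26. The 5 genes most like it over the 13 libraries, among all that averaged 1 log2 CPM or more, were *Slc37a4*, *Hdgf*, *Acss2*, *Cs* and *Pigq*. Their Pearson r ran from 0.966 to 0.971, and from 0.859 to 0.918 without the 2 libraries farthest from the median, and their Spearman rho from 0.819 to 0.984. Of the 5, *Slc37a4*, the glucose 6-phosphate transporter of the endoplasmic reticulum, had the highest rho. *Acss2*, which makes cytosolic acetyl-CoA from acetate, had a log2 fold change of -2.04 (edgeR adjusted p = 0.00116). The others were at -0.49 for *Cs*, -0.39 for *Pigq*, -0.27 for *Slc37a4* (adjusted p = 0.0117, 0.00271 and 0.0349) and -0.069 for *Hdgf*, which did not pass (adjusted p = 0.342). These genes were picked as the highest of all, and the correlations carry no p.

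Because the 6 genes were lower together, the sequence before their annotated starts was searched. Windows of 250 bases before to 50 after the start of the canonical transcript were read from GRCm39. The motifs, on both strands, were the E-box CACGTG, the core of the antioxidant response element TGACNNNGC, a sterol response element TCACNCCAC and the GC box GGGCGG. None of the first 3 occurred in any of the 8 windows, and across 21770 protein-coding genes they occurred in 7.81%, 12.5% and 1.34% of windows. The GC box was found in 6 of the 8 windows, all but those of *G6pdx* and *Rpia*, against 42.5% of all windows. A match is only a run of letters, and its absence says nothing of a factor. The 150 bases before the start are shown for the 4 genes with the largest decreases, in the direction of transcription, with GC boxes of either strand in capitals. They lie at chr14:30270931-30271080 (plus strand), chrX:73472820-73472969 (minus), chr4:149251179-149251328 (minus) and chr7:140971926-140972075 (plus).
*Tkt*: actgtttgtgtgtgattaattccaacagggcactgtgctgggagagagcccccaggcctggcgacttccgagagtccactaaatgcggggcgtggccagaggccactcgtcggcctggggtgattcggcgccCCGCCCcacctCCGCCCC
*G6pdx*: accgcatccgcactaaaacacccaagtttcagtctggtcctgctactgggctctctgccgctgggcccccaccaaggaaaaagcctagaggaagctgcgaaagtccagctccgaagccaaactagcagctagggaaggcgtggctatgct
*Pgd*: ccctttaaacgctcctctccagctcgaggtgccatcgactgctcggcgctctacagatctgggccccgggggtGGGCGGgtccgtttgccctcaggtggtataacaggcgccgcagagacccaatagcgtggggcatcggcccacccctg
*Taldo1*: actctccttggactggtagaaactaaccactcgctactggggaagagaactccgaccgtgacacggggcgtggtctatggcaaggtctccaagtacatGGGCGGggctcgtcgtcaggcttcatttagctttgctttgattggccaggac
The capitals at the end of the *Tkt* stretch belong to a box just before the start and to the first 2 bases of the next, which overlaps it by a single base and runs past the start. *G6pdx* has no capitals, and *Pgd* and *Taldo1* have 1 box each.

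Reads of some of these genes may be shared with other loci, since the counting tool and its use of strand are not given in the sources used here. *G6pdx* shares 526 bp of exon with *Ikbkg* on the opposite strand, and *Rpe* shares 2232 bp with *Kansl1l*, also opposite. *Ikbkg* was between 59.7 and 82.9 CPM and *Kansl1l* between 15.5 and 23.5 CPM over the 13 libraries, and neither differed at the threshold (edgeR adjusted p = 0.220 and 0.303). *Tkt* shares 323 bp with the noncoding gene *Gm63403* on the opposite strand and 25 bp with *Mir3076* on its own, and *Pgls* shares 534 bp with the noncoding gene *Gm56877*, opposite. *Pgls* also shares 935 bp with *Niban3* on the same strand, which was between 1.34 and 3.75 CPM and higher in iADKO (log2 fold change 0.65, edgeR adjusted p = 0.0200). *Taldo1* has a copy of 1253 bp at 93.4% identity in a *Cep85l* transcript (9585 counts over all libraries against 88658 for *Taldo1*) and a processed pseudogene of 1016 aligned bp with 119 counts. *G6pd2*, a copy of *G6pdx* at 93.2% identity over 2332 bp, had 16 counts in all.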

How the data were processed

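Whole pmWAT of 7 mice labelled fl/fl and 6 labelled iADKO was sequenced in 1 library per mouse, all with the same batch label. Powdered frozen tissue was extracted with RNA STAT-60, and strand-specific mRNA libraries were read in pairs. The authors deposited a table of counts for each gene, not normalized, and one of log2 values made from those counts by the regularized log (rlog) of DESeq2. The submitters' processing notes name FastQC 0.12.1, STAR 2.7.11a, DESeq2 and the mm39 build. Of the 33618 identifiers, 33184 were found in GENCODE release M39, which also gave coordinates, lengths and gene starts, since the RefSeq promoter table is on another build.

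In R 4.3.3, counts were filtered with filterByExpr of edgeR 4.0.16, normalized by TMM and compared by the robust quasi-likelihood test, with Benjamini-Hochberg adjustment over all genes tested and a threshold of 0.05. Log2 CPM used a prior count of 2. The procedure was also run on simulated counts, drawn without outlying libraries or differences between animal series, so that run says nothing about these features. Total counts were similar between libraries, and errors are the spread between mice. The TMM factors did not overlap between groups, at 0.892 to 1.018 in fl/fl and 1.046 to 1.102 in iADKO. The same count therefore became a lower CPM in an iADKO library. Libraries of a group differed by a chi-square of 8.16 to 88.8 per degree of freedom, above counting error. Alternatives were DESeq2's size factors, upper quartile normalization, the Wald test of DESeq2 1.42.0, other filters on low counts, blocks for replicate number or animal-number series, limma 3.58.1 on rlog values, and each library left out. Genes named are *Lmna*, the 8 enzymes, genes of the 21 lists and the 5 genes most like the enzymes' mean. Genes that share exons with the enzymes or are copies of them (at least 300 bp at 90% identity, by megablast) are also named. The enzymes and lists were chosen with earlier results of these data known. The rlog values were used in alternatives only. The result of 1 gene of the lists is not reported here.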

Additional observations from a re-analysis of the deposited data

Results flagged for a closer look

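In the 140 groups of libraries examined, for the named genes and the 6 pairs, 32 had a highest or lowest library set far from the rest, where chance gives about 1 in 20 groups. The groups are not independent, since the same libraries are read in genes that move together, and 5 of the flags are in genes picked for their likeness to the enzymes' mean, in which the same 2 libraries are the extremes. All but 1 were fl/fl replicate 5, with 17, or iADKO replicate 6, with 14. Values are log2 CPM unless a ratio is named.

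Fl/fl replicate 5 lay below the other fl/fl libraries in the enzymes *Tkt* (9.75, against a median of 11.15 in the others), *Taldo1* (8.10, against 8.88) and *Rpe* (5.66, against 6.15). Among related genes it lay below in *Shpk* (4.45), *Me1* (8.86), *Slc25a1* (8.01), *Aco1* (8.12) and *Gpx4* (7.89). It was also the low library in *Fasn* (12.53), *Tecr* (7.25), *Elovl6* (7.28), *Slc2a4* (7.63) and the adipocyte marker *Retn* (10.15). Of the genes most like the enzymes' mean, it was low in *Hdgf* (7.70), *Acss2* (7.06), *Cs* (8.77) and *Pigq* (6.54).

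iADKO replicate 6 lay above the other iADKO libraries in the enzymes *Taldo1* (8.41, against a median of 7.96 in the others) and *Idh1* (8.62, against 8.35). It lay above them too in *Pgm1* (7.56), *Slc25a1* (8.36), *Aco1* (8.21), *Nadk2* (4.85), *Nadk* (8.26), *Glud1* (8.27), *Tecr* (7.38), *Nsdhl* (5.09), *Slc2a4* (7.76) and *Acss2* (7.75). It was the low library in *Hk3* (5.07), and its log2 ratio of *G6pdx* to *H6pd*, at -0.70, was the highest of its group. In fl/fl, *Glud1* was highest in replicate 4 (8.57). The causes were not tested.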

How the results depend on the processing

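The count of 6 enzymes lower and 0 higher held under each alternative of the full comparison but the animal-number series as a block, which left 5, *Pgd* having an adjusted p of 0.0580. Without each library in turn, 6 were lower each time, while the genes called ran from 3998 to 6604, and *Tkt* ranged from -1.78 to -1.25 over the 21 alternatives of the full comparison. The same-numbered libraries had residual correlations of -0.026 to 0.22, with 3 of 6 pairs above 0.1, and 5 of 12 libraries correlated best with their own number, so the numbers were not taken to pair the mice. With the replicate block, which leaves out fl/fl replicate 7, 4833 genes were called and 6 enzymes were lower, with log2 fold changes of -1.64 for *Tkt*, -0.99 for *G6pdx* and -0.84 for *Pgd*. The block gave differences of -0.55 for *G6pdx* to *H6pd* and 1.31 for *Idh1* to *Me1* (exact sign-flip permutation p = 0.0625 for each; range over alternatives 0.00433 to 0.0625 and 0.00217 to 0.0625), and 2 other NADPH producers and 5 of 5 neutrophil markers higher.

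The animal-number series as a block called 1986 genes, 1202 lower and 784 higher, against 5104 in the main fit. It left 1 other pentose phosphate gene, 0 other NADPH producers and 2 glutathione, thioredoxin and related redox genes higher. It also left 0 lipid synthesis genes and 0 oxidase genes higher, and 7 lipogenic genes lower. No filter on low counts left 2 oxidase genes higher. Leaving out a library gave log2 fold changes of 0.15 to 0.24 for *Lmna* and differences of -0.21 to -0.11 for *G6pdx* to *Pgd*, and 1 to 2 other NADPH producers higher. Within the series of fl/fl replicates 4 and 5 and iADKO replicates 4 and 6, 0 genes passed, the 8 enzymes included, and *Pgls* and *Rpia* turned to 0.15 and 0.011. Within the other series, 4785 genes passed, 6 enzymes were lower and 0 other NADPH producers were higher. Both within-series fits were chosen after seeing the data. The cause of these changes was not tested.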
